A study of Rattus norvegicus with 10 samples.

Results

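Astrocytes take up neurotransmitter, potassium and water around neurons. Followed here were 10 genes typical of astrocytes in unchallenged tissue: Slc1a2, Slc1a3, Glul, Gja1, Gjb6, Aldh1l1, Aldoc, Sox9, S100b and Fgfr3. They were taken by symbol from a table of 32623 rat genes, in which each symbol stood beside 1 identifier, so 10 of 10 members were found. RNA had been sequenced from male Sprague-Dawley rats, from the supraoptic nucleus, a part of the hypothalamus that holds the vasopressin and oxytocin neurons. The rats weighed 250 to 300 g, their age was not given, and they had been kept on a light-dark cycle with free access to food and water. The 5 shOpn3 samples came from nuclei that had received adeno-associated virus carrying a short hairpin RNA that targets Opn3, which encodes the light-sensitive receptor opsin 3. The 5 shControl samples came from the opposite nuclei, which had received a virus with a non-targeting hairpin, and carry the same replicate numbers 1 to 5. Both groups thus carried a virus and a hairpin, and no uninjected nucleus was part of the comparison. Tissue was taken 2 weeks after the virus as a punch of 1 mm from sections of 100 µm, so tissue beside the nucleus may be included, and the promoter and the cells reached by the virus were not given in the sources used here.

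Glutamate released by neurons is cleared by the transporters GLT-1 (Slc1a2) and GLAST (Slc1a3) in the astrocyte membrane, turned into glutamine by glutamine synthetase (Glul), and returned to neurons in that form. Astrocytes are joined into a network by gap junctions of connexin 43 (Gja1) and connexin 30 (Gjb6), through which potassium and small metabolites spread. In the supraoptic nucleus, astrocyte processes are known to withdraw from the magnocellular neurons when these are strongly active, as in dehydration or lactation, which changes how far glutamate and potassium reach.

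The libraries held 33158341 to 39958578 reads. Opn3 had 145 to 290 normalized counts in shOpn3 and 261 to 1007 in shControl, lower in shOpn3 in 5 of 5 same-numbered pairs (log2 fold change -1.82, standard error 0.32, adjusted p = 0.00226 by limma). A normalized count is a read count divided by the size factor of its sample. In shControl replicate 5 the value of Opn3 (261) lay under that of shOpn3 replicate 1 (290), so values without this sample are given below for Slc1a2, Aldh1l1, Aldoc, Sox9 and S100b, whose values moved most without it. Avp and Oxt, which mark the neurons of the nucleus, were present in all samples, with at least 4619 and 3810 normalized counts. Both were much lower in shOpn3, at 21.4% and 20.6% of the control mean, with groups that did not overlap. The log2 fold change was -2.35 for Avp (standard error 0.43, adjusted p = 0.00269 by limma) and -2.21 for Oxt (standard error 0.33, adjusted p = 0.000915 by limma). Their presence thus does not show that the punches were alike.

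The 10 members did not move as a group. Gja1 rose, Glul fell, and the other 8 did not pass the test, in a limma fit over 15597 genes with a threshold of 0.05 on the adjusted p. Thus 2 of 10 members were called, against 18.8% of all genes tested, and the count of members is close to that background. Of all genes, 10.4% were called higher and 8.48% lower. The median log2 fold change of the members was -0.09, and that of all genes tested was -0.02. The median size of the change, without its sign, was 0.20 for the members and 0.19 for all genes. The log2 fold changes of all 10 members lay between -0.38 and 0.42, while the genes called among all 15597 had a median size of 0.63. With the replicate number as a block, Gja1 and Glul were again the members called, against 30.3% of all genes (15.1% higher and 15.2% lower). The same 2 members were called by edgeR (19.4% of all genes, 10.4% higher and 9.04% lower). DESeq2 called them too, with 21.3% of the 17437 genes to which it gave an adjusted p (11.4% higher and 9.89% lower). EdgeR with the block added Fgfr3 (30.6% of all genes; 14.7% higher, 16% lower), and limma-voom with sample quality weights added Slc1a3 and Sox9 (32.6%; 15.7% higher, 17% lower). Of the members 3 had an unadjusted limma p under 0.05, as had 32% of all genes. All members were well covered, with at least 430 normalized counts in any sample. Since the punches are bulk tissue, changes in astrocyte number, in RNA per astrocyte and in RNA from other cells cannot be told apart for any member.

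**Figure D1:**
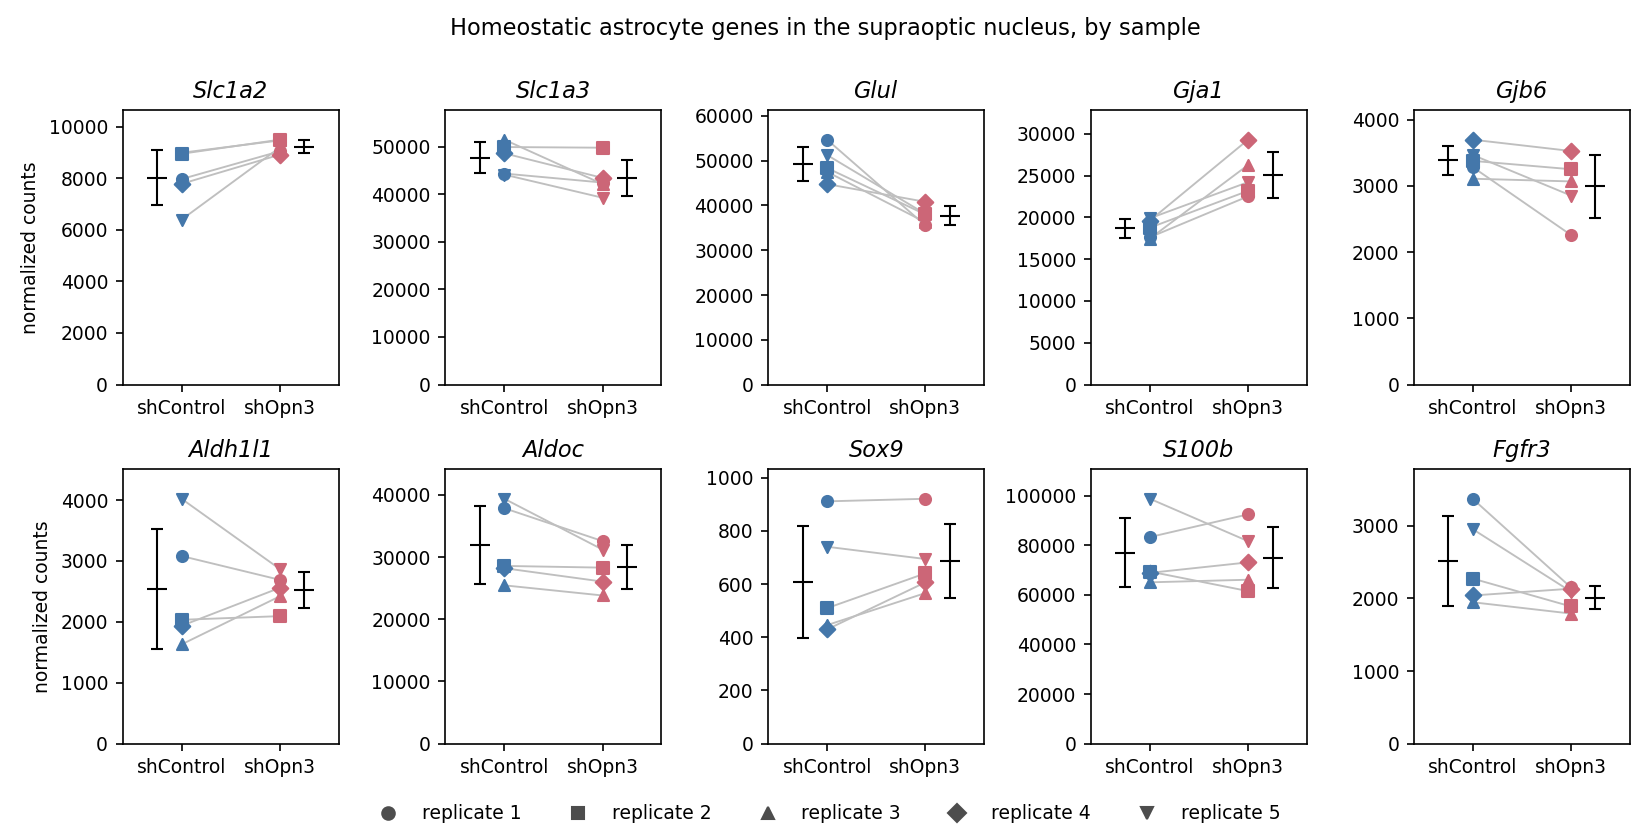
Normalized counts (vertical axes, from 0) of the 10 members in each shControl and shOpn3 sample. Symbols mark the replicate numbers, grey lines join same-numbered samples, and bars give mean ± SD (n = 5). The groups are apart for Glul and Gja1 and overlap for the other 8 genes.

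**Figure D2:**
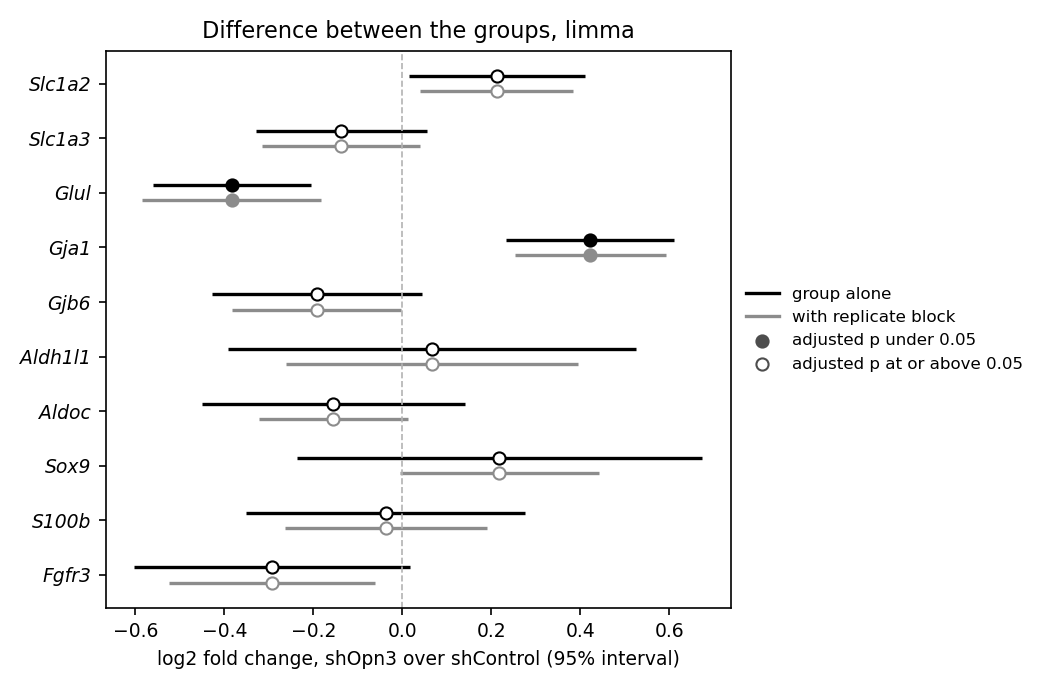
Log2 fold change of each member, shOpn3 over shControl, with its 95% interval from limma, for the model with the group alone (black) and with the replicate block (grey). Filled points have an adjusted p under 0.05: Glul at -0.38 and Gja1 at 0.42.

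Gap junction genes were considered next. Gja1 (ENSRNOG00000000805) encodes connexin 43, the main gap junction protein of astrocytes. It had 17618, 18765, 17460, 19615 and 19890 normalized counts in shControl replicates 1 to 5. In shOpn3 replicates 1 to 5 it had 22513, 23169, 26264, 29289 and 24209 normalized counts. The lowest shOpn3 sample lay above the highest shControl sample, and shOpn3 replicate 4 was the highest of all. The group means were 18670 ± 1114 and 25089 ± 2744 normalized counts (SD, 5 samples each), a rise of 0.42 log2 units (standard error 0.09; adjusted p = 0.00536 by limma). The exact two-sided permutation test gave p = 0.00794, the smallest that 5 against 5 samples allow. Since the groups did not overlap, Gja1 was higher in shOpn3 in 5 of 5 pairs, at 122% to 150% of the same-numbered control. Over the pairs the exact sign-flip p was 0.0625, the smallest that 5 pairs allow, and limma with the replicate block gave an adjusted p of 0.00432. Groups did not overlap for 15.3% of all genes tested, 8.03% with shOpn3 above and 7.23% with it below.

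Gjb6 (ENSRNOG00000022116) encodes connexin 30, which shares astrocyte junctions with connexin 43. It had 3286, 3379, 3109, 3699 and 3469 normalized counts in shControl replicates 1 to 5 and 2260, 3253, 3069, 3529 and 2856 in shOpn3 replicates 1 to 5. The groups overlapped, and shOpn3 replicate 1 stood lowest. Gjb6 had a log2 fold change of -0.19 (95% interval -0.43 to 0.04; limma adjusted p = 0.249). Gjb6 was lower in shOpn3 in 5 of 5 pairs, which held in one direction or the other for 39.4% of all genes. The pairs ranged from 68.8% of the control in replicate 1 to 98.7% in replicate 3. Without shOpn3 replicate 1 the log2 fold change of Gjb6 was -0.10.

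The ratio of Gja1 to Gjb6 within a sample does not depend on the size factor, so both connexins could be set against each other directly. The ratio of normalized counts was 5.36, 5.55, 5.61, 5.30 and 5.73 in shControl replicates 1 to 5. In shOpn3 replicates 1 to 5 it was 9.96, 7.12, 8.56, 8.30 and 8.47. The shControl samples lay close together, and all shOpn3 samples lay above them. The ratio was 1.53-fold higher in shOpn3 (log2 difference 0.61; exact two-sided permutation test, p = 0.00794, adjusted over 3 ratios p = 0.0119). The 3 ratios were chosen with earlier results of these data known, which these p-values do not take into account. Since the groups did not overlap, the ratio was necessarily higher in 5 of 5 pairs, so the pair count adds no separate evidence. The exact sign-flip p was 0.0625, the smallest that 5 pairs allow (adjusted p = 0.0938). A ratio shows that the genes changed unequally and does not show which of them changed.

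Gap junction genes of other cells gave a different picture. Of 13 such genes on a list of partners, 13 were tested and 3 were called (23.1%), all lower, against 8.48% of all genes called lower. Gjb1 encodes connexin 32, which oligodendrocytes use in the channels that couple them to astrocytes. It averaged 1737 ± 667 normalized counts in shControl against 593 ± 184 in shOpn3 (log2 fold change -1.53, standard error 0.26, adjusted p = 0.00177 by limma). Gjc3, also a glial connexin gene, was named after its values were seen (log2 fold change -1.004, standard error 0.18, adjusted p = 0.00258 by limma). The list's median was -0.12. Gjb2, which encodes connexin 26, was likewise singled out afterwards (log2 fold change 0.02, standard error 0.15, adjusted p = 0.943 by limma). The fall of Gjb1 went with that of the oligodendrocyte markers described further on, whose part in it was not tested.

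The glutamate cycle held the member that fell. Glul (ENSRNOG00000049560) encodes glutamine synthetase, which joins ammonia to glutamate in astrocytes and, to a lesser degree, in oligodendrocytes. It had 54692, 48369, 47502, 44767 and 51264 normalized counts in shControl replicates 1 to 5. In shOpn3 replicates 1 to 5 it had 35550, 38005, 36262, 40814 and 38123 normalized counts. Every shControl sample lay above every shOpn3 sample, with shControl replicate 4 (44767) and shOpn3 replicate 4 (40814) nearest to each other. The means were 49319 ± 3794 and 37751 ± 2040 normalized counts (SD, 5 samples each), so 76.5% of the control mean was left. On the log2 scale Glul changed by -0.38 (standard error 0.08; adjusted p = 0.00650 by limma), and the exact permutation test (two-sided) gave p = 0.00794. All 5 pairs had less Glul in shOpn3, at 65.0%, 78.6%, 76.3%, 91.2% and 74.4% of the control in replicates 1 to 5. The spread of these pairs was thus wide, with the smallest difference in replicate 4. Over the pairs the exact sign-flip p was 0.0625, the smallest that 5 pairs allow, and limma with the replicate block gave an adjusted p of 0.0128. The 12 oligodendrocyte markers moved in the same direction as Glul: 11 were called lower, against 8.48% of all genes, and 0 were at 0 reads. The summed level of these markers was 765614 to 1297280 normalized counts in shControl and 263413 to 493906 in shOpn3. Their part in the fall of Glul was not tested.

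Slc1a2 (ENSRNOG00000005479), the transporter GLT-1, had 7968, 8948, 8987, 7782 and 6394 normalized counts in shControl replicates 1 to 5. In shOpn3 replicates 1 to 5 it had 9044, 9495, 9467, 8914 and 9190 normalized counts. The groups overlapped only between shControl replicates 2 and 3 and shOpn3 replicate 4. The shOpn3 samples were tightly grouped, with a coefficient of variation of 2.78% against 13.2% in shControl, where replicate 5 stood lowest. The log2 fold change was 0.21 (95% interval 0.01 to 0.41; limma p = 0.0376, adjusted p = 0.129), and the exact two-sided permutation p was 0.0238 before adjustment. Slc1a2 was higher in shOpn3 in 5 of 5 pairs, from 105% of the control in replicate 3 to 144% in replicate 5. Without shControl replicate 5 the log2 fold change of Slc1a2 was 0.13. Under quantile normalization, which forces the same distribution on all samples, it was 0.29 and passed the threshold (limma adjusted p = 0.0190), while limma-voom with sample quality weights gave 0.12 (adjusted p = 0.228).

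Slc1a3 (ENSRNOG00000016163), the transporter GLAST, had 44316, 49887, 51432, 48568 and 44092 normalized counts in shControl replicates 1 to 5 and 42430, 49747, 42116, 43409 and 39242 in shOpn3 replicates 1 to 5. The groups overlapped, because shOpn3 replicate 2 lay among the shControl samples. Slc1a3 had a log2 fold change of -0.14 (95% interval -0.33 to 0.05; limma adjusted p = 0.316). All 5 pairs were lower in shOpn3, from 81.9% of the control in replicate 3 to 99.7% in replicate 2. Only limma-voom with sample quality weights, among the alternatives, called this gene (log2 fold change -0.23, adjusted p = 0.0173), while quantile normalization gave -0.0678.

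The transporters were then compared with each other. The ratio of Slc1a2 to Slc1a3, in normalized counts, was 0.180, 0.179, 0.175, 0.160 and 0.145 in shControl replicates 1 to 5. In shOpn3 replicates 1 to 5 it was 0.213, 0.191, 0.225, 0.205 and 0.234. All shOpn3 samples lay above all shControl samples. The ratio was 1.27-fold higher in shOpn3 (log2 difference 0.35; exact two-sided permutation test, p = 0.00794, adjusted over 3 ratios p = 0.0119), although neither transporter passed the test on its own. This ratio too was chosen with earlier results of these data known, which its p-values do not take into account. Groups that do not overlap fix the pair count at 5 of 5 higher, with an exact sign-flip p of 0.0625 (adjusted p = 0.0938). Without shControl replicate 5 the log2 difference of this ratio was 0.30.

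**Figure D3:**
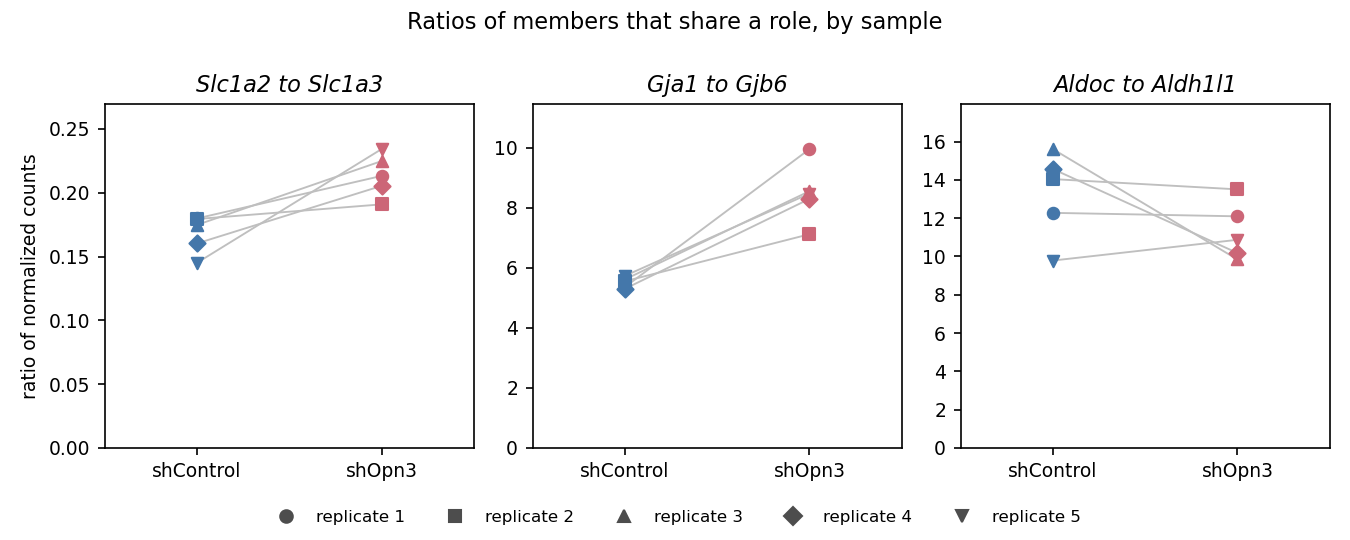
Ratio of normalized counts of members that share a role (vertical axes, from 0) in each sample, with symbols for the replicate numbers and lines between same-numbered samples. The shOpn3 samples lie above all shControl samples for Slc1a2 to Slc1a3 and for Gja1 to Gjb6, while the groups overlap for Aldoc to Aldh1l1.

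Other genes of glutamate and glutamine handling moved in both directions. Of 17 tested, 2 were called higher and 3 lower (29.4%, against 18.8% of all genes), with a median log2 fold change of -0.11. Grm3 and Grm5 encode metabotropic glutamate receptors found on astrocytes. Grm3, the receptor of the mature astrocyte, averaged 4694 ± 675 normalized counts in shControl against 2632 ± 254 in shOpn3 (log2 fold change -0.83, standard error 0.10, adjusted p = 0.000407 by limma). Grm5, which dominates in young astrocytes and is also found in neurons, averaged 1248 ± 209 normalized counts in shControl against 2218 ± 247 in shOpn3 (log2 fold change 0.84, standard error 0.12, adjusted p = 0.000845 by limma). For both genes the groups were fully apart, as the rule for naming them required, and so all 5 pairs had the same direction. Groups did not overlap for 15.3% of all genes tested. The cystine-glutamate exchanger gene Slc7a11 rose (log2 fold change 0.50, standard error 0.09, adjusted p = 0.00346 by limma), and Slc7a10, the gene of the serine and glycine transporter Asc-1 of astrocytes, fell (log2 fold change -0.67, standard error 0.11, adjusted p = 0.00194 by limma). The third call lower was Got2, a transaminase gene. Glud1, the gene of glutamate dehydrogenase, was picked with its values known (log2 fold change -0.11, standard error 0.07, adjusted p = 0.329 by limma).

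The promoters of the connexin and glutamine synthetase genes are shown because these genes gave the called members and the largest ratio difference among the 3 ratios tested. The sequences are the 250 bases before each annotated start, from RefSeq on assembly GRCr8, written 5′ to 3′ along the gene. RefSeq gave 14 such windows for 9 of the 10 members, not counting Sox9. Capitals mark matches to any of 7 short motifs, searched on both strands: the TATA box as TATAAA, the CAAT box as CCAAT, the GC box as GGGCGG, the AP-1 site as TGANTCA, the STAT site as TTCNNNGAA, the NFI half-site as TTGGCA and the SOX site as ACAAAG. The NFI half-site and the CAAT box share letters and overlap in the downstream Glul window.
Gja1 (chr20:36302314-36302563, + strand): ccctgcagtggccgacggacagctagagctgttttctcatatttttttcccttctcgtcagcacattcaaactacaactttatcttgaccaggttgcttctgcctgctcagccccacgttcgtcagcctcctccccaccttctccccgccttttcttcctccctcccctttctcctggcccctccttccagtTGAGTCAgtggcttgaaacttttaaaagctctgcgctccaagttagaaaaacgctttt
Gjb6 (chr15:35410139-35410388, - strand): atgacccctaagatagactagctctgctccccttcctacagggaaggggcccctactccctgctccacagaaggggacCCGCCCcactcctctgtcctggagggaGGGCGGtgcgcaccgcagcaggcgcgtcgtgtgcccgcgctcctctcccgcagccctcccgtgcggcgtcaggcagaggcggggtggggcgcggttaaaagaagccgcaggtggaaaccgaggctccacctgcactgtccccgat
Glul, upstream start (chr13:68519250-68519499, + strand): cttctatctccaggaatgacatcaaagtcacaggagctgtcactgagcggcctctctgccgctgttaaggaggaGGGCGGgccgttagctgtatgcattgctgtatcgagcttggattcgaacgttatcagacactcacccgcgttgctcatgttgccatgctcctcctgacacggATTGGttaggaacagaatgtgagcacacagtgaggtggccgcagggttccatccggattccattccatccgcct
Glul, downstream start (chr13:68575816-68576065, + strand): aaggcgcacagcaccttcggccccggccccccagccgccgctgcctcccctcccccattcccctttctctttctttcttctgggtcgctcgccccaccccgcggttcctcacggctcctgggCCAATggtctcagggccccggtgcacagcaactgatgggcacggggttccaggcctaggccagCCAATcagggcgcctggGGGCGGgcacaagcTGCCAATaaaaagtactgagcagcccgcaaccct
The Gja1 window held a single match, TGAGTCA, an AP-1 site that begins 58 bases before the start. A match to the AP-1 letters stood in 6.34% of all 33469 RefSeq windows of this length and in 1 of the 14 windows of the members. The Gjb6 window shown held 2 GC boxes and no match to the AP-1 letters. In the downstream Glul window there were 3 CAAT boxes, 1 GC box and 1 NFI half-site, and in the upstream one 1 CAAT box and 1 GC box. CAAT and GC boxes are common, in 34% and 30.5% of all windows. Such matches describe these letters only, and no binding was measured.

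The metabolic enzymes came next. Aldh1l1 (ENSRNOG00000047023) encodes a folate dehydrogenase that is widely used as an astrocyte marker. It had 3082, 2034, 1630, 1935 and 4022 normalized counts in shControl replicates 1 to 5 and 2691, 2094, 2419, 2559 and 2869 in shOpn3 replicates 1 to 5. The shControl samples spread far more than the shOpn3 samples, with a coefficient of variation of 39.1% against 11.6%, and all shOpn3 values lay inside the shControl range. Replicates 1 and 5 were lower in shOpn3 (87.3% and 71.3% of the control) and replicates 2, 3 and 4 were higher (103%, 148% and 132%). The log2 fold change was 0.07 (limma adjusted p = 0.864), and its 95% interval, from -0.39 to 0.52, held moderate changes in both directions. Its sign was not stable: edgeR and DESeq2 both gave -0.01, and without shControl replicate 5 the limma value was 0.25.

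Aldoc (ENSRNOG00000011452) encodes aldolase C, the glycolytic aldolase of brain, and ranged from 25448 to 39360 normalized counts in shControl (median 28571) and from 23819 to 32561 in shOpn3 (median 28294). The groups overlapped widely, and the highest 2 samples of each group were replicates 1 and 5. The log2 fold change was -0.16 (95% interval -0.45 to 0.14; limma adjusted p = 0.472), with lower values in shOpn3 in 5 of 5 pairs, at 79.3% to 99.0% of the control. The value of Aldoc was smaller without shControl replicate 5 (-0.0738), shControl replicate 1 (-0.0880) or shOpn3 replicate 3 (-0.0943). The ratio of Aldoc to Aldh1l1 did not pass the test (log2 difference -0.22; exact two-sided permutation test, p = 0.167), and the shOpn3 samples were lower in 4 of 5 pairs. Without shControl replicate 5 that difference was -0.33 with an exact permutation p adjusted over 3 ratios of 0.0317.

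Genes around these enzymes were called at a share below or near that of all genes, 18.8%. Of 17 genes of folate, serine and one-carbon metabolism, 1 was called, Shmt1, a serine hydroxymethyltransferase of low level (5.88% of the list), and the list's median was -0.01. Shmt1 averaged 69.5 ± 14.1 normalized counts in shControl against 108 ± 19.1 in shOpn3 (log2 fold change 0.63, standard error 0.18, adjusted p = 0.0260 by limma); its groups overlapped, and it is named as the only call of that list. Of 23 genes of glycolysis and lactate transport tested, 5 were called (21.7%), all higher, and the list's median was -0.07. Hk2, the hexokinase isoform that is low in resting brain, averaged 742 ± 118 normalized counts in shControl against 1427 ± 260 in shOpn3 (log2 fold change 0.94, standard error 0.14, adjusted p = 0.000907 by limma). The monocarboxylate transporter gene Slc16a7 also rose (log2 fold change 0.56, standard error 0.14, adjusted p = 0.0145 by limma). The other 3 calls were Pfkp, Pfkfb3 and Slc16a1.

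Sox9, S100b and Fgfr3 mark astrocyte identity, and limma with the group alone called none of the 3. Sox9 (ENSRNOG00000002607) encodes the transcription factor that starts glial fate and stays on in adult astrocytes. It had 911, 510, 446, 430 and 741 normalized counts in shControl replicates 1 to 5 and 921, 640, 566, 607 and 694 in shOpn3 replicates 1 to 5. Replicates 1 and 5 were the highest in both groups, and the groups overlapped. The log2 fold change was 0.22 (95% interval -0.24 to 0.67; limma adjusted p = 0.515). Over the pairs, Sox9 was 101%, 126%, 127%, 141% and 93.8% of the same-numbered control. With the replicate block the interval narrowed to between -0.00446 and 0.44 and the adjusted p was 0.124. Limma-voom with sample quality weights called Sox9 (log2 fold change 0.42, adjusted p = 0.0405), while other omissions moved the limma value both ways. It was 0.38 without shControl replicate 1 and 0.31 without shControl replicate 5, but 0.12 and 0.11 without shControl replicates 3 and 4 and 0.11 without shOpn3 replicate 1.

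Fgfr3 (ENSRNOG00000016818), a fibroblast growth factor receptor of astrocytes and their precursors, had 3373, 2274, 1948, 2041 and 2955 normalized counts in shControl replicates 1 to 5. In shOpn3 replicates 1 to 5 it had 2153, 1890, 1792, 2135 and 2096 normalized counts. The high shControl values of replicates 1 and 5 had no counterpart in shOpn3, where the highest sample had 2153 normalized counts, and shControl replicates 3 and 4 fell inside the shOpn3 range. Fgfr3 had a log2 fold change of -0.29 (95% interval -0.60 to 0.02; limma adjusted p = 0.179), and 4 of 5 pairs were lower in shOpn3. With the replicate block the interval was -0.52 to -0.06 with a limma adjusted p of 0.0594, and edgeR with the same block called it (log2 fold change -0.30, adjusted p = 0.0488). Without shControl replicate 1 the log2 fold change was -0.18, and limma-voom with sample quality weights gave -0.15.

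S100b (ENSRNOG00000001295), a calcium-binding protein made by astrocytes and also by some oligodendrocytes, ranged from 65076 to 98762 normalized counts in shControl (median 69409) and from 61534 to 92481 in shOpn3 (median 73111). S100b had a log2 fold change of -0.04 (95% interval -0.35 to 0.28; limma adjusted p = 0.889), with 3 pairs higher and 2 lower. The sign turned in several alternatives, as without shControl replicate 5 (0.06), and changes within this interval in either direction are not excluded.

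Genes that share a role with Sox9 and S100b were taken next. Of 19 glial transcription factor genes tested, 3 were called higher (Sox2, Nfib and Rorb) and 2 lower (Sox8 and Sox10), and the list's median was 0.22. These calls made up 26.3% of the list, against 18.8% of all genes. Sox2, a factor of neural stem cells that astrocytes keep, averaged 1895 ± 131 normalized counts in shControl against 2399 ± 202 in shOpn3 (log2 fold change 0.34, standard error 0.08, adjusted p = 0.00987 by limma). Rorb rose as well (log2 fold change 0.30, standard error 0.08, adjusted p = 0.0263 by limma). Sox10 and Sox8, which act in oligodendrocytes, fell: Sox10 averaged 1327 ± 618 normalized counts in shControl against 581 ± 166 in shOpn3 (log2 fold change -1.12, standard error 0.29, adjusted p = 0.0185 by limma) and Sox8 averaged 883 ± 199 normalized counts in shControl against 522 ± 26.3 in shOpn3 (log2 fold change -0.73, standard error 0.13, adjusted p = 0.00285 by limma). Of 11 genes of the S100 family and its receptor, 1 was called (9.09%), S100a10, higher and with overlapping groups (log2 fold change 0.49, standard error 0.11, adjusted p = 0.00674 by limma), and the list's median was 0.02.

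In the fibroblast growth factor list, 4 of 23 genes were called higher and 3 lower (30.4%, against 18.8% of all genes), with a median of 0.03. Fgfr2, a receptor shared by astrocytes and oligodendrocytes, averaged 7274 ± 1597 normalized counts in shControl against 4725 ± 647 in shOpn3 (log2 fold change -0.61, standard error 0.14, adjusted p = 0.00984 by limma). The ligand gene Fgf1 fell (log2 fold change -0.55, standard error 0.11, adjusted p = 0.00568 by limma) and the ligand gene Fgf2 rose (log2 fold change 0.75, standard error 0.15, adjusted p = 0.00431 by limma). Fgf13, an intracellular member of the family that binds sodium channels in neurons, averaged 1436 ± 146 normalized counts in shControl against 2871 ± 445 in shOpn3 (log2 fold change 0.99, standard error 0.11, adjusted p = 0.000306 by limma). The rule for naming these 4 genes required groups that do not overlap, which also fixes the same direction in all 5 pairs. Such groups were found for 15.3% of all genes tested. The remaining calls were Fgf10 and Dusp6 higher and Frs3 lower.

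Water and potassium handling, a main task of astrocytes, had called genes in both directions. Of 14 genes tested, 2 were called higher and 3 lower (35.7%, against 18.8% of all genes), with a median of -0.04. Aqp4, the water channel of astrocyte endfeet, averaged 83949 ± 6490 normalized counts in shControl against 115292 ± 15992 in shOpn3 (log2 fold change 0.45, standard error 0.11, adjusted p = 0.0155 by limma). Atp1b2, a sodium pump subunit of glia, rose too (log2 fold change 0.27, standard error 0.08, adjusted p = 0.0361 by limma). Kcnj10, the inward rectifier potassium channel Kir4.1 of astrocytes and oligodendrocytes, averaged 3473 ± 621 normalized counts in shControl against 2121 ± 327 in shOpn3 (log2 fold change -0.71, standard error 0.14, adjusted p = 0.00376 by limma). Slc12a2, the sodium-potassium-chloride cotransporter, fell as well (log2 fold change -0.74, standard error 0.09, adjusted p = 0.000348 by limma). The third call lower was Slc6a11, a GABA transporter gene. Each of these 5 genes had groups that did not overlap, and so the same direction in 5 of 5 pairs. Atp1b2 and Slc12a2 were named by a rule that required this, and it held for 15.3% of all genes tested.

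Among 32 other astrocyte-enriched genes, 5 were called higher and 4 lower (28.1% of the list), and their median log2 fold change was 0.00. The urea transporter gene Slc14a1 averaged 3452 ± 210 normalized counts in shControl against 6221 ± 948 in shOpn3 (log2 fold change 0.84, standard error 0.11, adjusted p = 0.000446 by limma). Slc39a12, a zinc transporter gene, rose (log2 fold change 0.60, standard error 0.09, adjusted p = 0.000767 by limma). The protease gene Htra1 fell (log2 fold change -0.56, standard error 0.08, adjusted p = 0.000787 by limma), and so did Mfge8, a secreted bridge between dying cells and phagocytes (log2 fold change -0.53, standard error 0.13, adjusted p = 0.0156 by limma). Over the 9 lists that share a role with the members, 41 of 168 genes tested were called (24.4%, against 18.8% of all genes), 23 higher and 18 lower.

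**Figure D4:**
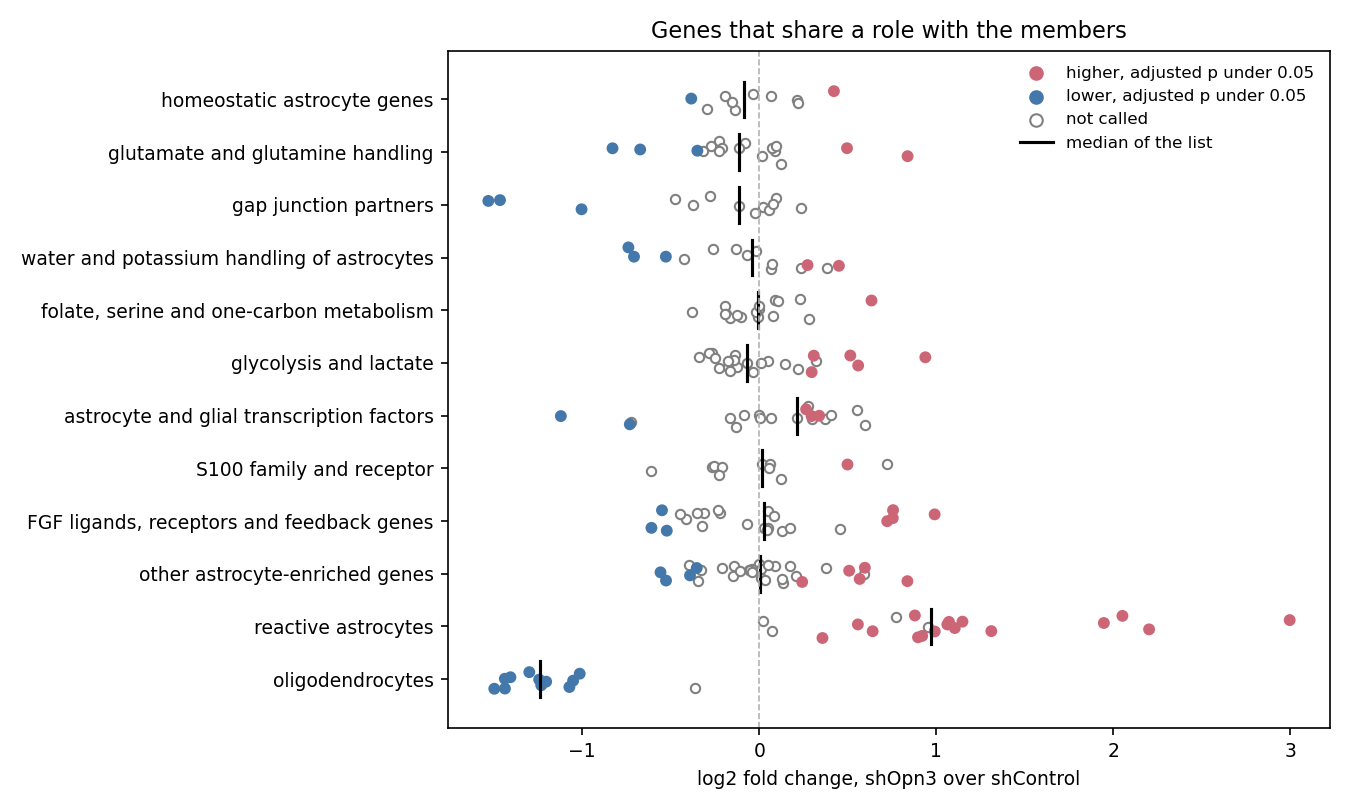
Log2 fold change (shOpn3 over shControl) of every tested gene of the members' list, of 9 lists that share a role with them, and of the reactive astrocyte and oligodendrocyte markers. Filled points were called by limma at an adjusted p under 0.05, and black bars are list medians: those of the first 10 lists lie between -0.12 and 0.22, those of the last 2 at 0.97 and -1.24.

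Markers of other cell states moved beside the members, where 10.4% of all genes were called higher and 8.48% lower. Of 20 reactive astrocyte genes tested, 16 were called, all higher, with a summed level of 65706 to 118176 normalized counts in shControl and 126197 to 264087 in shOpn3, and 0 of them were at 0 reads. Gfap, the intermediate filament of reactive astrocytes, averaged 54392 ± 19325 normalized counts in shControl against 115489 ± 32541 in shOpn3, with overlapping groups (log2 fold change 1.10, standard error 0.26, adjusted p = 0.0104 by limma). C3, a complement gene of reactive astrocytes and microglia, averaged 2940 ± 675 normalized counts in shControl against 26735 ± 14723 in shOpn3 (log2 fold change 2.996, standard error 0.36, adjusted p = 0.000367 by limma). The highest summed level of this list stood in shOpn3 replicate 4, which was also the highest shOpn3 sample for Gja1, Gjb6 and Glul. Microglial genes were called in 13 of 14 cases, all higher, with summed levels of 17515 to 21326 in shControl and 29109 to 57171 in shOpn3. Of the 12 oligodendrocyte genes, 11 were called lower, and Mog, a myelin gene, averaged 11089 ± 2397 normalized counts in shControl against 4517 ± 960 in shOpn3 (log2 fold change -1.30, standard error 0.16, adjusted p = 0.000407 by limma). Of 7 genes of oligodendrocyte precursors tested, Olig1 and Olig2 were called lower. Of 13 neuronal genes, Rbfox3 was called higher and Elavl4 and Uchl1 lower, while of 14 magnocellular genes 8 were called lower, Avp and Oxt among them, and Cpe higher. Of 5 ependymal and tanycyte genes tested, Crym was called higher. Of 12 genes of endothelium, pericytes and meninges, 0 were called by limma, edgeR and DESeq2 each, 0 had an unadjusted limma p under 0.05, and 1 was called with the replicate block. The part of these other cells in the values of the members was not tested.

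The members also differed by replicate number, within each group. Aldh1l1, Aldoc, Sox9 and S100b had replicates 1 and 5 as their highest 2 samples in shControl and again in shOpn3, a pattern noticed after the values were seen that held in both groups for 13.6% of all genes. Glul and Fgfr3 showed it in shControl alone. Slc1a2 and Slc1a3 had the opposite order in shControl, with replicates 2 and 3 highest and replicate 5 lowest. In shControl, replicate 3 was the lowest sample for 6 of the 10 members and for 0 of the glutamate cycle genes Slc1a2, Slc1a3 and Glul. Oligodendrocyte markers were also highest in shControl replicates 1 and 5, at summed levels of 1005900 and 1297280 normalized counts against 765614 to 832909 in the other 3, and highest in replicates 5 and 4 in shOpn3. The summed level of the other astrocyte-enriched genes, in shControl, was 526040 and 537899 in replicates 1 and 5 and 394916 to 431534 in the other 3. In shOpn3 that sum was 516304, 431295, 463086, 521174 and 503886 in replicates 1 to 5, with replicate 4 highest. No label names a batch that could be set against these numbers.

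**Figure D5:**
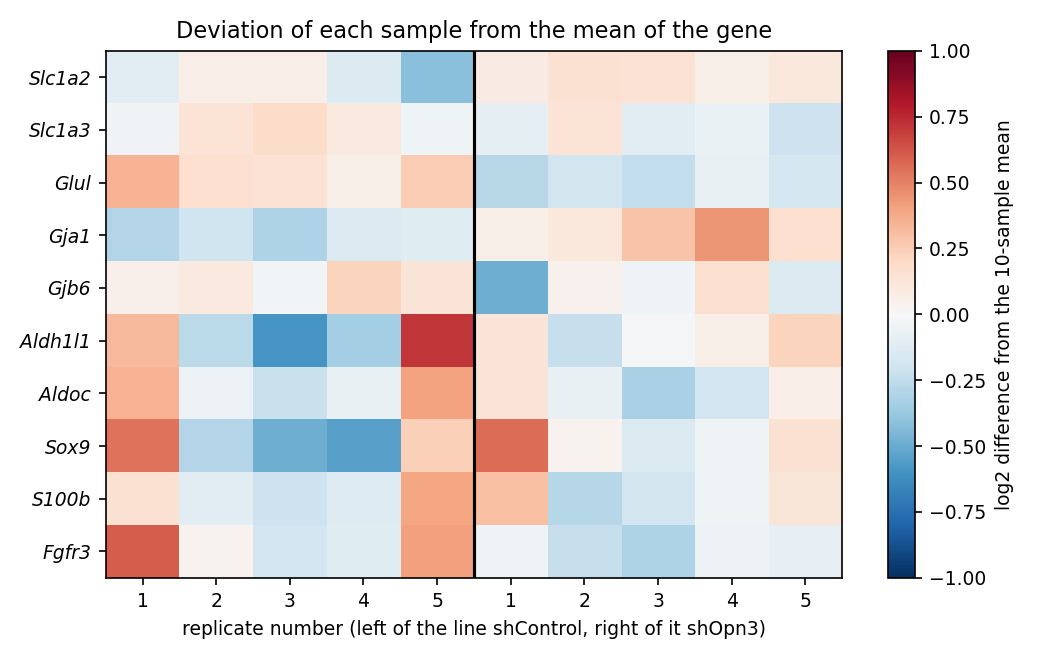
Each cell gives the log2 difference of a sample from the 10-sample mean of that gene, with shControl left and shOpn3 right of the line and replicate numbers along the horizontal axis. Gja1 and Glul change sign at the line, while Aldh1l1, Sox9 and S100b are highest in replicates 1 and 5 on both sides.

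The authors' deposited table holds an unpaired DESeq2 comparison, and its values for the members equal those of DESeq2 on the recovered reads. In the authors' deposited table, Glul had a log2 fold change of -0.39 (standard error 0.0750, adjusted p = 5.93e-06) and Gja1 one of 0.43 (standard error 0.0906, adjusted p = 4.29e-05). For the other 8 members the authors' deposited table listed adjusted p-values from 0.134 (Fgfr3) to 0.987 (Aldh1l1).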

How the data were processed

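RNA from 10 supraoptic nuclei had been sequenced, 5 per group. Per the submitters' processing notes, FastQC, STAR, featureCounts and DESeq2 were used; their versions, the genome build, the annotation and the strand setting were not given in the sources used here, so genes that overlap another gene or have a near copy are uncertain. The deposited signal per gene and sample is a read count divided by a size factor (0.942 to 1.07), and 100% of positive values were whole multiples of 1 read (within 0.001 reads) in each sample. Per the file headers, the authors also deposited a log2 fold change with its standard error, a Wald score, and a p-value with its adjusted p-value.

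Values were taken as log2(normalized count + 1), which understates changes of genes with few reads. Genes with a mean of at least 10 (15597) were compared with limma 3.58.1 (R 4.3.3; lmFit, eBayes with trend), with the group as the only term and Benjamini-Hochberg adjustment at 0.05. This is the test for normalized values; edgeR 4.0.16, DESeq2 1.42.0 and limma-voom were run on the recovered reads as alternatives. On these reads edgeR called 3025 genes and DESeq2 3711. Intervals are 95% intervals of the fit. For ratios and single genes an exact permutation test was used (two-sided, 252 splits, smallest p 0.00794). Values after ± are SDs of 5 samples. The limma, edgeR and DESeq2 fits with the group alone were tested on simulated data. The simulated samples were independent, so this test does not cover the correlation between samples of equal number. The members, lists and ratios were chosen with earlier results of these data known. Named genes are all members; Opn3, Avp and Oxt; from each companion list up to 2 called genes with the largest rises and falls whose groups do not overlap; from each marker list 1 of each; and Aqp4, Gfap, Kcnj10, Gjb1 and Mog whatever their values. Some genes of the lists are not reported here. "Largest" is by absolute log2 fold change.

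Replicate numbers were taken to pair the samples. Per the labels, each rat received both viruses, 1 in each nucleus. The deviations from the group mean, over genes, correlated between samples of equal number in all 5 pairs (r from 0.12 to 0.44). Between samples of different number r ran from -0.45 to 0.36 (median -0.21), and pair 4 had a lower r than shControl replicate 4 had with shOpn3 replicates 2 and 3 (0.24 each). The labels do not say that equal numbers mark a rat. The limma p-values set the group difference against the spread between these samples. The fits with the group alone and the permutation tests treat the samples as independent, although some may come from the same rat.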

Additional observations from a re-analysis of the deposited data

Results flagged for a closer look

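Among 40 sets of 5 values examined (members, Opn3, Avp, Oxt, ratios and library depth), 1 held a sample far from the rest, and chance alone would give about 2. In shControl replicate 1, Oxt reached 56716 normalized counts, while the next highest shControl sample had 21354. None of the 10 members had such a sample in either group.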

How the results depend on the processing

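Glul and Gja1 kept their direction and their call in all 26 alternative fits, with log2 fold changes from -0.45 to -0.30 and from 0.36 to 0.52 and adjusted p-values of at most 0.0410 and 0.0447. Of 260 values that the 10 members took in these fits, 244 kept direction and side of the threshold, 4 gained a call and 12 changed sign, all of genes not called. Under quantile normalization Slc1a2 gained a call, so 2 members were called higher, the median of the members was -0.0199 and S100b turned to 0.0155. Limma-voom with sample quality weights called 5085 genes (2441 higher, 2644 lower), among them 2 members higher and 2 lower, with a median of 0.0248 and S100b at 0.0782. With the replicate block, limma called 4726 genes against 2940 without it, 2376 of them lower. EdgeR with the replicate block called 4777 genes, 2490 lower, and 2 members lower. Aldh1l1 turned to -0.0134 in edgeR and to -0.00781 in DESeq2. As pair differences (replicate block), the log2 ratios of Slc1a2 to Slc1a3 and of Gja1 to Gjb6 were 0.35 and 0.61 with an adjusted exact p of 0.0938 each, where 5 sign flips cannot go below 0.0625 before adjustment; otherwise the block changed no call of a member in limma. Leaving out a sample or a replicate number gave 1604 to 3056 genes called (961 to 1651 higher, 643 to 1405 lower), with 1604 without replicate 3 and 1895 without replicate 2. Over the same fits the median of the members was -0.106 to -0.00891, Aldh1l1 -0.0730 to 0.253, S100b -0.117 to 0.0560 and the log2 ratio of Aldoc to Aldh1l1 -0.33 to -0.16. The cause of these shifts was not tested.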
